A study of Mus musculus with 6 samples.

Results

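Reactive and homeostatic astrocyte genes were followed in the dorsal hippocampus of mice in which the long non-coding RNA Snhg11 was knocked down. The genes were listed by symbol. The reactive list runs from Gfap to Serping1 and holds 24 genes that astrocytes are known to raise after injury or inflammation. The homeostatic list runs from Aqp4 to Slc4a4 and holds 11 genes that resting astrocytes use. All 35 were found among the 55401 genes counted. Both lists were compared gene by gene, and the question was whether injection of the Snhg11 oligonucleotide was accompanied by a shift of these genes relative to the control oligonucleotide.

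Total RNA was sequenced from 6 dorsal hippocampi, 3 that received Control-ASO and 3 that received Snhg11-ASO. All mice were WT littermates of the Ts65Dn line, a mouse model of Down syndrome, were aged 4 months, and received 50 µg of ASO in each hemisphere of the dorsal dentate gyrus 3 days before the tissue was taken. An ASO is an antisense oligonucleotide. Snhg11-ASO was a gapmer against exon 5 of Snhg11 that directs RNase H to cut the transcript, and Control-ASO was an equally long gapmer whose scrambled sequence has no target gene. All 6 hippocampi had thus been injected with an oligonucleotide, and a single oligonucleotide sequence stood for the knockdown.

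Astrocytes take up the glutamate and potassium that neurons release, move water at the vessel wall, and are joined to each other by gap junctions. After injury, infection or ischaemia they enlarge and raise a group of genes called reactive, led by the intermediate filaments Gfap and Vim. Mouse panels divide these genes into pan-reactive genes, seen after several insults, genes seen mainly after ischaemia, and genes seen mainly after endotoxin. Part of the response is driven by cytokines of the IL-6 family, whose receptors activate the transcription factor STAT3, and AP-1 is a further factor that inflammatory signals activate.

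The promoters of these genes show how far such sites are shared by letters alone. RefSeq windows of 250 bases before the annotated start (build GRCm38.p6) were found for 28 of the 35 genes, 19 reactive and 9 homeostatic. The STAT motif TTCNNNGAA, searched on both strands, lay in 5 of 26 reactive windows (19.2%), in 2 of 11 homeostatic windows (18.2%) and in 7.02% of all 32851 windows. The AP-1 motif TGANTCA lay in 3 of 26 reactive windows (11.5%), in 1 of 11 homeostatic windows (9.09%) and in 6.75% of all windows. Some genes have several windows, and windows of the same gene can overlap. A match describes the letters and does not show that a factor was bound.

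The windows of Tgm1, a reactive gene, and Slc1a3, a homeostatic gene, are printed whole because each holds the STAT motif and belongs to a different list. Capitals mark the motif.
Tgm1, chr14:55713493-55713742, minus strand: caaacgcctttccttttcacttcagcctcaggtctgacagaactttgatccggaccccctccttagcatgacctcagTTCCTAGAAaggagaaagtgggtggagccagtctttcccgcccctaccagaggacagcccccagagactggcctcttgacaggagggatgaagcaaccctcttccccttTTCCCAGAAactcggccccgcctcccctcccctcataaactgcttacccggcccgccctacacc
Slc1a3, chr15:8710808-8711057, minus strand: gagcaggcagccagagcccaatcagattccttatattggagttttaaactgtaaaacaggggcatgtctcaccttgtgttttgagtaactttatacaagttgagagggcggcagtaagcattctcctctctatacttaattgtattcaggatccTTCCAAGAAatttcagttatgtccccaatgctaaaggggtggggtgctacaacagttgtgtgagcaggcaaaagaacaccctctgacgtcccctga
The first match began 173 bases before the Tgm1 start, with a further match at 64, and the Slc1a3 match began 96 bases before its start. Short stretches are enough for the other reactive genes with a match, of which Emp1 and Sphk1 carry both motifs close together. In the Emp1 stretch, 25 bases before the start, the AP-1 and STAT letters overlap, and in Sphk1 the AP-1 letters come first. Emp1 has a further AP-1 match, TGAGTCA, 145 bases before the start, which is not printed.
Steap4, chr5:7960350-7960370, plus strand: gaactcTTCCCGGAAactttg
Emp1, chr6:135362805-135362825, plus strand: acagggTTCTTTGAAttgatg
Emp1, chr6:135362900-135362923, plus strand: ccagacTGATTCATAGAAactcct
Sphk1, chr11:116531781-116531810, plus strand: tgtcgcTGAGTCAccTTCTCGGAAggcact
Both lists therefore held windows with the STAT letters, at like shares, and the homeostatic windows were few.

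Before the genes are described, 2 facts on the libraries are needed. Between 28951250 and 43997537 counts fell on genes in each library. Across genes, Snhg11-ASO replicate 1 had a Spearman correlation of 0.955 to 0.959 with the other 5 libraries, while all other pairs lay between 0.979 and 0.991, so it stood apart, and results are given with and without it. It was the highest library for 33.3% of all genes tested and the lowest for 32.5%. Levels are given as CPM, the counts relative to the library's total over tested genes after TMM scaling, which sets the libraries on a common scale. Snhg11 itself had 551, 436 and 209 CPM in Control-ASO replicates 1, 2 and 3 against 139, 65.4 and 69.4 CPM in the same order with Snhg11-ASO. Its log2 fold change was -2.13 (SE, standard error, 0.43, adjusted p = 0.395 from edgeR and 6.2e-05 from DESeq2, and 1.7e-05 to 0.951 over all alternatives). The sample labels do not say whether the samples came from separate mice, while the study's methods count animals, and the p-values measure only the spread between these samples.

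The reactive list stood higher with Snhg11-ASO as a group, while the homeostatic list did not move one way. Both lists were chosen with earlier results of these data known, so the counts and shares below describe the lists and do not test them. Of the 24 reactive genes 23 passed the filter on low counts, and all 23 had a log2 fold change above 0. Their median was 1.58, beside a median of 0.01 over all 19969 genes tested. In 14 of them every Snhg11-ASO sample lay above every Control-ASO sample, which held for 7.73% of all genes tested. In 16 of them the unadjusted p of edgeR was under 0.05 and the level higher, beside 3.68% of all genes. No gene passed the adjusted threshold in edgeR (0% of all genes), where 734 genes were higher and 885 lower at an unadjusted p under 0.05. DESeq2 called 99 genes higher (0.496%) and 159 lower (0.796%), among them 4 reactive genes, all higher. These were Serpina3n (adjusted p over the alternatives 0.0170 to 0.979), Osmr (0.00379 to 0.979), S1pr3 (0.0179 to 0.979) and Clcf1 (0.00168 to 0.979). Lcn2, Cd14 and Sphk1 received no p from DESeq2 with all samples. With 3 samples against 3 the exact permutation test cannot go below p = 0.1, the value of each gene whose groups did not overlap.

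The size of the shift rested partly on Snhg11-ASO replicate 1. The median of the reactive genes relative to the Control-ASO mean, on the log2 CPM scale, was 0.10, 0.31 and 0.03 in the controls against 2.10, 0.93 and 0.95 with Snhg11-ASO. The 3 Snhg11-ASO samples thus lay above the 3 Control-ASO samples, with replicate 1 far above the other two. Without this library the median log2 fold change was 0.85, and 12 genes had an unadjusted p under 0.05 and a higher level, beside 4.41% of all genes in that fit (5.54% were lower). Without Control-ASO replicate 1 the number was 10, and without Control-ASO replicate 3 it was 7, beside 1.77% and 1.89% of all genes that were higher in those fits (2.59% and 2.74% were lower), so fewer genes passed in general. In 14 of the 24 reactive genes replicate 1 had more than 2 times the level of the higher of Snhg11-ASO replicates 2 and 3, beside 6.63% of all genes. Samples with the same replicate number were taken as pairs, although their deviations from the group means correlated only weakly (0.297, 0.179 and 0.103). Of the 23 genes 20 were higher in Snhg11-ASO in all 3 pairs, beside 17.6% of all genes. In bulk tissue more cells of a type and more RNA per cell cannot be told apart.

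**Figure D1:**
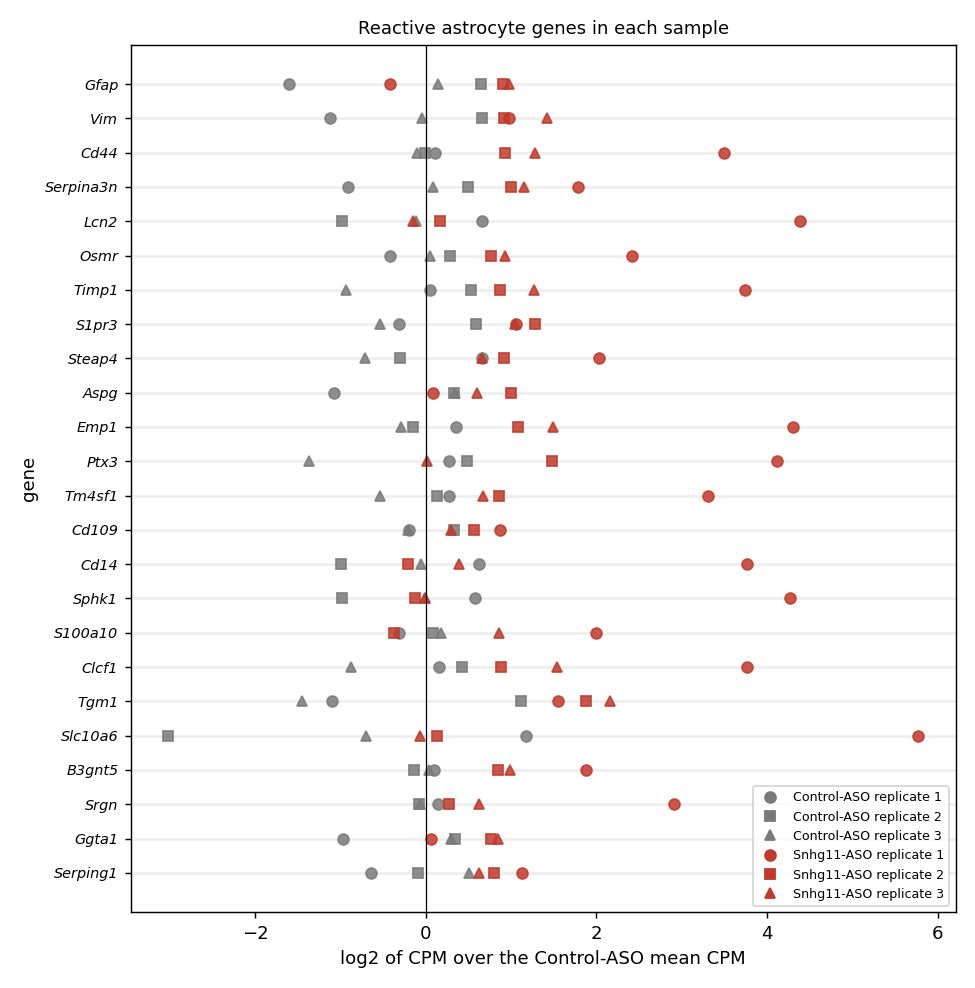
Each row is a reactive gene and each point a sample, placed at the log2 of its CPM over the mean CPM of the 3 Control-ASO samples, with grey for Control-ASO, red for Snhg11-ASO, and circles, squares and triangles for replicates 1, 2 and 3. Red circles lie far to the right of the other points for genes such as Lcn2, Emp1 and Slc10a6, while in Vim, S1pr3 and Tgm1 all 3 red points lie close together and above the grey ones.

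Of the 10 pan-reactive genes, 7 were higher at an unadjusted p under 0.05 in edgeR, beside 3.68% of all genes. The groups did not overlap in the same 7, beside 7.73% of all genes that were higher without overlap. They are Vim, Cd44, Serpina3n, Osmr, Timp1, S1pr3 and Steap4, while Gfap, Lcn2 and Aspg overlapped. The median log2 fold change of the 10 was 1.34, and 1.01 without Snhg11-ASO replicate 1.

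Gfap, the filament protein most used to show reactive astrocytes, lies on the minus strand of chromosome 11 (102887336 to 102900912, GRCm38). Levels were 417, 1984 and 1398 CPM with Control-ASO and 948, 2375 and 2486 CPM with Snhg11-ASO, in the order of the replicate numbers as in all that follows. The groups overlapped, since the Control-ASO samples alone spanned 4.76-fold and replicate 1 was the lowest sample of each group. The log2 fold change was 0.61 (SE 0.58, adjusted p = 0.810 from edgeR; exact permutation test, p = 0.5). Within the same-numbered pairs Snhg11-ASO was 2.27, 1.20 and 1.78 times Control-ASO. With the replicate number as a block the log2 fold change was 0.76 and the unadjusted p 0.00877, while the adjusted p was 0.484 (edgeR), so the call did not change.

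Vim, the filament protein vimentin, had 47.9, 164 and 101 CPM in the controls and 205, 198 and 279 CPM with Snhg11-ASO. All Snhg11-ASO samples were higher, and the lowest of them was 198 against a highest control of 164. Its log2 fold change was 1.12 (SE 0.41, adjusted p = 0.567 from edgeR), and 1.19 without Snhg11-ASO replicate 1. Control-ASO replicate 1 was again the lowest sample.

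Serpina3n, a secreted inhibitor of serine proteases, had 68.9, 183 and 137 CPM in the controls and 445, 259 and 287 CPM after Snhg11-ASO. The groups did not overlap, with replicate 1 highest. The log2 fold change was 1.35 (SE 0.37, adjusted p = 0.492 from edgeR and 0.0189 from DESeq2), and 1.08 without that library. Serpina3n belongs to a cluster of closely related genes, and read pairs that map to several of them were not counted.

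Membrane receptors made up a further part of the pan-reactive genes. S1pr3, a receptor for phosphorylated sphingosine, had 10.4, 19.4 and 8.88 CPM in the controls and 26.7, 31.2 and 26.6 CPM with Snhg11-ASO, so its 3 Snhg11-ASO samples were close to each other and all above the controls. Its log2 fold change was 1.13 (SE 0.29, adjusted p = 0.484 from edgeR and 0.0232 from DESeq2), and 1.17 without replicate 1. Osmr, a subunit of the receptor for the cytokine oncostatin M, had 10.1, 16.5 and 14.1 CPM against 72.6, 23.1 and 25.8 CPM. Here replicate 1 stood at 2.82 times the higher of the other two, and the log2 fold change of 1.58 (SE 0.46, adjusted p = 0.512 from edgeR and 0.0283 from DESeq2) became 0.85 without it. Cd44, the hyaluronan receptor, had 19.2, 17.7 and 16.5 CPM in the controls and 200.3, 34.0 and 43.4 CPM with Snhg11-ASO. Replicate 1 carried 4.61 times the higher of the other two, which still lay above the tight controls. In DESeq2 Cd44 missed the threshold with all samples (adjusted p = 0.111) and passed it without replicate 1 (adjusted p = 4.9e-09), where its log2 fold change was 1.12 (adjusted p over the alternatives 4.9e-09 to 0.979).

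Timp1, an inhibitor of matrix metalloproteinases, had 4.28, 5.95 and 2.17 CPM against 55.5, 7.56 and 9.99 CPM. Its groups did not overlap, and the log2 fold change of 2.56 (adjusted p = 0.543 from edgeR) became 1.09 without replicate 1. Steap4, a metal reductase of the cell membrane, was low, with 2.38, 1.22 and 0.920 CPM against 6.14, 2.85 and 2.38 CPM. Control-ASO replicate 1 and Snhg11-ASO replicate 3 were nearly level, so the groups were separated by little, but within the pairs Snhg11-ASO was 2.58, 2.34 and 2.59 times Control-ASO. Lcn2, a secreted protein that binds iron carriers, had 10.2, 3.27 and 5.94 CPM in the controls and 135, 7.23 and 5.84 CPM with Snhg11-ASO. Only replicate 1 was high, and the log2 fold change was 2.93 (SE 1.25, adjusted p = 0.618 from edgeR) with that library and 0.02 without it. Aspg, an asparaginase, had 4.59, 12.1 and 12.2 CPM against 10.3, 19.3 and 14.6 CPM, with overlapping groups and a log2 fold change of 0.61.

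Of the 11 genes of the ischaemia type, 10 were tested. At an unadjusted p under 0.05 in edgeR 7 were higher, beside 3.68% of all genes, and 5 were higher without overlap, beside 7.73%. This was the part of the list that leaned most on replicate 1, which was the highest library in 9 of the 10. Their median log2 fold change was 2.27 with all samples and 0.84 without it.

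Emp1, a small membrane protein that spans the membrane several times, had 4.66, 3.27 and 2.97 CPM in the controls and 71.8, 7.70 and 10.2 CPM with Snhg11-ASO. Replicate 1 held 7.01 times the higher of the other two, yet these too exceeded every control. Its log2 fold change was 3.04 (SE 0.89, adjusted p = 0.507 from edgeR), and 1.31 without replicate 1, where DESeq2 gave an adjusted p of 0.000549 (0.979 at most over the alternatives). Tm4sf1, another such membrane protein, had 11.8, 10.6 and 6.71 CPM against 95.8, 17.6 and 15.4 CPM, again with no overlap, and its log2 fold change went from 2.15 to 0.77.

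Clcf1 encodes a cytokine of the IL-6 family. It had 1.16, 1.40 and 0.564 CPM in the controls and 14.1, 1.91 and 3.02 CPM with Snhg11-ASO, with no overlap. Its log2 fold change was 2.60 (SE 0.81, adjusted p = 0.530 from edgeR and 0.0280 from DESeq2), and 1.25 without replicate 1. Its exons overlap those of AC109138.7 on the same strand, and reads on both genes were counted for neither, so its level is understated in all samples.

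Tgm1, a transglutaminase that cross-links proteins and whose promoter is printed above, behaved otherwise. It had 3.09, 14.4 and 2.43 CPM in the controls and 19.5, 24.4 and 29.7 CPM with Snhg11-ASO, so replicate 1 was the lowest of the Snhg11-ASO samples. The log2 fold change was 1.88 (SE 0.66, adjusted p = 0.558 from edgeR), and 2.02 without replicate 1. B3gnt5, a glycosyltransferase of glycolipids, was low but tight, with 1.05, 0.892 and 1.01 CPM in the controls and 3.62, 1.77 and 1.95 CPM with Snhg11-ASO. All Snhg11-ASO samples lay above the controls, and the log2 fold change was 1.31 (SE 0.34, adjusted p = 0.488 from edgeR), or 0.92 without replicate 1.

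The remaining genes of the ischaemia type overlapped between groups. Ptx3, a secreted pentraxin of innate immunity, had 2.41, 2.79 and 0.772 CPM against 34.5, 5.58 and 2.02 CPM. Cd109, a membrane-anchored protein that modulates TGF-β signalling, had 10.3, 14.9 and 10.2 CPM against 21.6, 17.5 and 14.5 CPM, and in it the spread within groups was small. Sphk1, the kinase that makes phosphorylated sphingosine, had 2.28, 0.773 and 1.51 CPM against 29.4, 1.39 and 1.51 CPM. Only replicate 1 was high in Sphk1, whose log2 fold change was 2.83 with it and -0.06 without it, and this was the sole tested reactive gene that turned negative. Cd14, the endotoxin co-receptor that myeloid cells also carry, had 3.64, 1.19 and 2.29 CPM against 32.2, 2.06 and 3.11 CPM, and its log2 fold change went from 2.39 to 0.13. S100a10, a partner of annexin, had 6.42, 8.50 and 9.05 CPM against 32.0, 6.15 and 14.5 CPM. For S100a10 replicate 2 of Snhg11-ASO lay below all the controls.

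Slc10a6, a transporter of sulfated steroids, was the only gene on the lists that did not pass the filter on low counts. Its raw counts were 16, 1 and 5 with Control-ASO against 501, 11 and 10 with Snhg11-ASO. Nearly all of its counts came from Snhg11-ASO replicate 1, and the groups overlapped.

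Of the 3 genes of the endotoxin type, Srgn and Serping1 were higher without overlap between groups, beside 7.73% of all genes. Srgn, a proteoglycan best known from the granules of blood cells, had 5.27, 4.52 and 4.54 CPM in the controls and 35.9, 5.74 and 7.37 CPM with Snhg11-ASO. Its log2 fold change was 1.77 (SE 0.69, adjusted p = 0.586 from edgeR), and 0.46 without replicate 1. Serping1, the inhibitor of the first complement component, had 5.20, 7.58 and 11.5 CPM against 17.7, 14.2 and 12.5 CPM, with a log2 fold change of 0.87 that became 0.71. Ggta1, a galactosyltransferase, had 4.86, 12.04 and 11.6 CPM against 9.94, 16.1 and 17.0 CPM and overlapped. Its lowest sample was Control-ASO replicate 1, as in Gfap, Vim, Serpina3n and Aspg.

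The homeostatic genes did not share a direction. All 11 were tested, 4 had a log2 fold change above 0 and 7 below, with a median of -0.12 (0.03 without Snhg11-ASO replicate 1). None had an unadjusted p under 0.05 in edgeR, beside 4.43% of all genes that were lower at that level, and none passed the adjusted threshold in edgeR or DESeq2. Groups did not overlap in 1 of them, which was lower, beside 7.7% of all genes. Snhg11-ASO replicate 1 was the lowest library in 9 of the 11. With the replicate number as a block, 2 of the 11, Gjb6 and Glul, were lower at an unadjusted p under 0.05 (0.00673 and 0.0190), beside 4.6% of all genes in that fit, and Aqp4 was higher (0.0102), beside 3.99%.

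**Figure D2:**
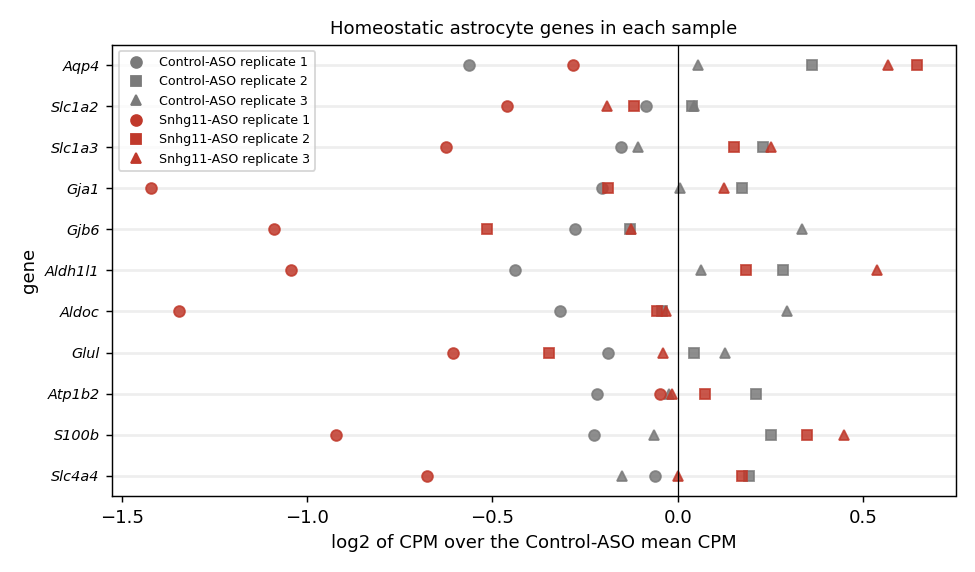
Each row is a homeostatic gene and each point a sample, placed at the log2 of its CPM over the Control-ASO mean, with the same colours and shapes for groups and replicates. Red circles, Snhg11-ASO replicate 1, are the leftmost points in 9 of the 11 genes, while in all but Slc1a2 a red square or triangle lies among or to the right of the grey points.

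Slc1a2 and Slc1a3 are the glutamate transporters of astrocytes. Slc1a2 had 3234, 3526 and 3535 CPM in the controls and 2494, 3162 and 3006 CPM with Snhg11-ASO. This was the gene whose groups did not overlap (exact permutation test, p = 0.1), with a log2 fold change of -0.25 (SE 0.13, adjusted p = 0.682 from edgeR), and -0.15 without replicate 1. Slc1a3 had 386, 502 and 398 CPM against 278, 476 and 510.4 CPM, with a log2 fold change of -0.02 (SE 0.24), and 0.20 without replicate 1. Glul, the glutamine synthetase that converts the glutamate taken up, had 779.9, 915 and 969 CPM against 583, 698 and 863 CPM. It was lower in each same-numbered pair, at 0.748, 0.763 and 0.891 times Control-ASO, and its groups overlapped (log2 fold change -0.31, SE 0.17, adjusted p = 0.680 from edgeR).

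The gap junction genes, Gja1 and Gjb6, encode the connexins that couple astrocytes. Gjb6 had 31.3, 34.7 and 47.9 CPM in the controls and 17.9, 26.6 and 34.8 CPM with Snhg11-ASO. It was lower in all 3 pairs and had the most negative log2 fold change of the list, -0.52 (SE 0.27, adjusted p = 0.670 from edgeR), or -0.31 without replicate 1. Gja1 had 132, 172 and 153 CPM against 56.9, 134 and 166 CPM, and its log2 fold change of -0.36 became -0.02 without replicate 1.

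Aqp4, the water channel of astrocyte endfeet, had 148, 280.5 and 227 CPM in the controls and 179, 341 and 323 CPM with Snhg11-ASO. It was the only homeostatic gene that was higher in all 3 pairs, at 1.22, 1.22 and 1.43 times Control-ASO. The groups overlapped (exact permutation test, p = 0.5), and the log2 fold change was 0.37 (SE 0.31, adjusted p = 0.775 from edgeR). As in Gfap, replicate 1 was the lowest sample of both groups.

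The remaining homeostatic genes overlapped between groups. Aldoc, the aldolase of glycolysis in astrocytes, had 381, 462 and 583 CPM against 187, 457 and 465 CPM, with only replicate 1 below all controls. Aldh1l1, an enzyme of folate metabolism used as an astrocyte marker, had 47.1, 77.7 and 66.6 CPM against 30.9, 72.4 and 92.5 CPM. Its exons overlap those of Gm45901 on the same strand, so its counts are understated. S100b, a calcium-binding protein, had 48.1, 66.9 and 53.7 CPM against 29.7, 71.6 and 76.7 CPM. In Aldh1l1 and S100b, replicate 1 was thus the lowest and replicate 3 the highest sample of all. Slc4a4, the sodium bicarbonate cotransporter, had 224, 267 and 211 CPM against 146, 264 and 234 CPM. Atp1b2, a subunit of the sodium pump, had 95.7, 129 and 109 CPM against 108, 117 and 110.0 CPM, with a log2 fold change of 0.00 (SE 0.12), the narrowest estimate on either list.

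**Figure D3:**
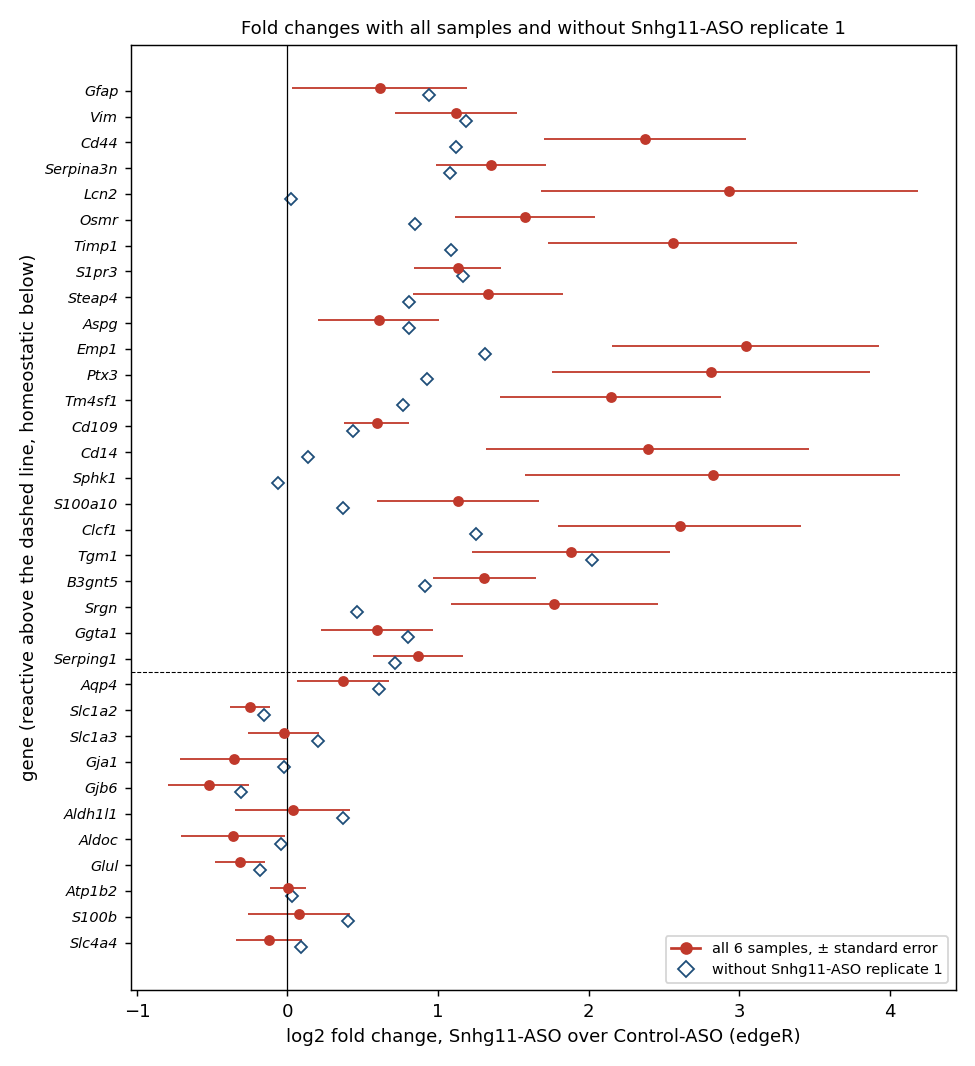
Rows are the 34 tested genes, with reactive genes above the dashed line. Red points give the log2 fold change of Snhg11-ASO over Control-ASO from edgeR with all 6 samples and lines its standard error, and open diamonds give the value without Snhg11-ASO replicate 1. All red points above the line lie right of 0, from 0.59 to 3.04, and diamonds sit far left of the points for genes that replicate 1 carried, such as Lcn2 and Sphk1, but not for Gfap, Vim, S1pr3 or Tgm1.

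Levels can be compared between genes only per length. On the scale of CPM per kb of exon, the mean over the Control-ASO samples was 300.3 ± 188 (SD, n = 3) for Gfap, 267 ± 29.3 for Glul, 261 ± 13.03 for Slc1a2 and 146 ± 31.1 for Aldoc. The first 3 of these did not differ beyond their spread, and Gfap varied far more between samples than the other genes at the top. Serpina3n followed with 62.7 ± 27.7, Slc1a3 with 50.2 ± 7.503, S100b with 37.9 ± 6.49 and Aqp4 with 35.01 ± 10.7, each differing from the next by less than the sum of their SDs. Vim stood at 22.0 ± 12.3, beside Slc4a4 at 21.6 ± 2.72. All other reactive genes lay lower, down to B3gnt5 at 0.190 ± 0.0161 and Slc10a6 at 0.113 ± 0.127. The largest log2 fold changes, those of Emp1, Lcn2, Sphk1 and Ptx3, therefore belonged to genes at low levels in the controls, between 0.319 and 2.46 CPM per kb of exon.

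**Figure D4:**
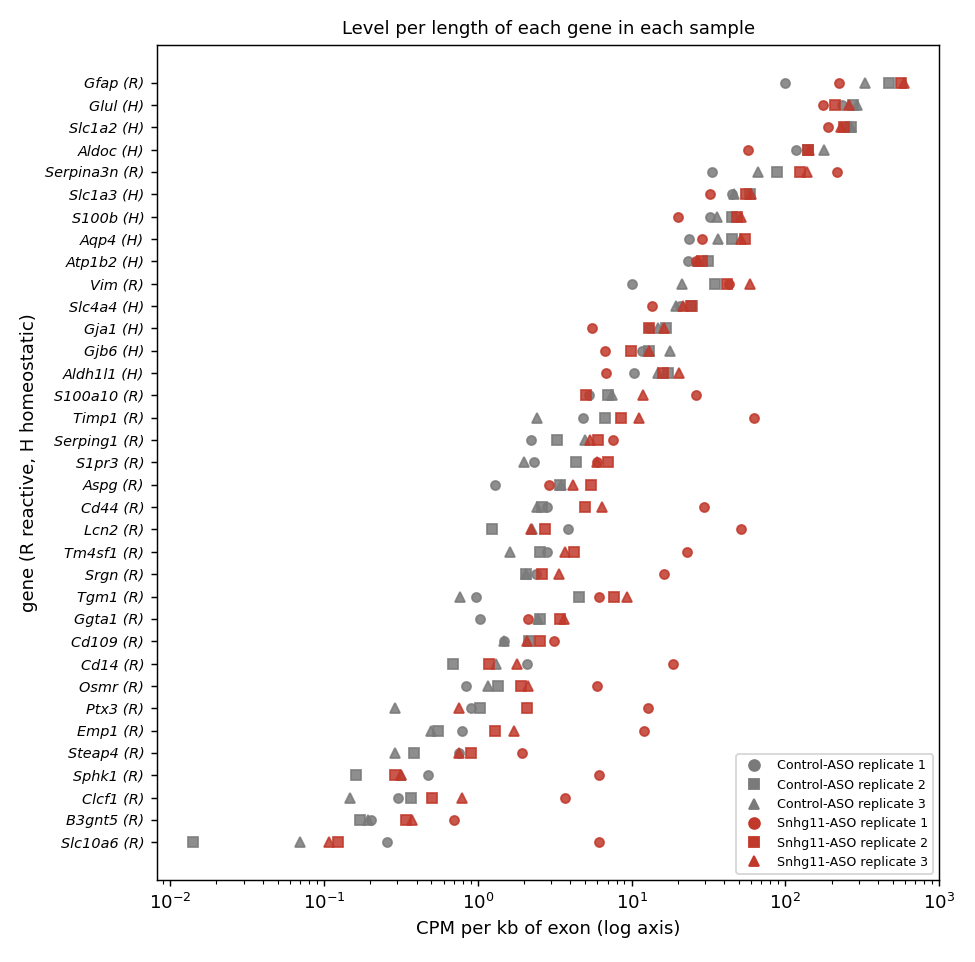
Genes are ordered by their mean Control-ASO level, and each point gives the level of a sample in CPM per kb of exon on a log axis, with R marking reactive and H homeostatic genes. Gfap, Glul and Slc1a2 lead at 300.3, 267 and 261, and the red circles of Snhg11-ASO replicate 1 depart from the other points mainly in the lower part of the plot.

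Genes of the same panels and pathways that are not on either list were read in the same fit. Of 14 other reactive panel genes 13 were tested, and all had a log2 fold change above 0. At an unadjusted p under 0.05 in edgeR 6 were higher, beside 3.68% of all genes. The median of the 13 was 0.95, and 0.55 without Snhg11-ASO replicate 1. Gbp2, a guanylate-binding protein induced by interferon, had 7.61, 10.9 and 15.1 CPM against 60.6, 25.8 and 25.5 CPM (DESeq2 adjusted p = 0.00278). Iigp1, an interferon-induced GTPase, had 7.82, 15.0 and 16.1 CPM against 70.6, 39.3 and 24.6 CPM (DESeq2 adjusted p = 0.00289). Neither gene overlapped between groups, and neither passed in edgeR (adjusted p = 0.460 and 0.464, at most 0.951 and 0.979 over the alternatives).

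Of 18 genes of the IL-6 family and of signalling through JAK and STAT3, 16 were tested. At an unadjusted p under 0.05 in edgeR 5 were higher and 1 lower, beside 3.68% and 4.43% of all genes. One of the 5, Osm, a ligand that binds the receptor Osmr, had 4, 8 and 6 counts in the controls and 59, 20 and 13 counts with Snhg11-ASO, and it entered the test only because its Snhg11-ASO samples passed the filter on low counts, so its difference is no support for the list. The median log2 fold change of the 16 was 0.24, and 0.05 without replicate 1. Stat3, which is also on the panel list, had 48.3, 63.4 and 51.8 CPM in the controls and 219, 80.7 and 78.4 CPM with Snhg11-ASO. Socs3, its feedback inhibitor, had 4.997, 2.91 and 3.38 CPM against 80.7, 6.53 and 6.55 CPM. In both genes every Snhg11-ASO sample lay above the controls, with replicate 1 far above the other two. Lif, a ligand of the family, had 1.70, 1.40 and 1.16 CPM against 28.4, 2.01 and 1.86 CPM.

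Of 27 other astrocyte genes, 9 had a log2 fold change above 0 and 18 below, with a median of -0.21, and of -0.00 without replicate 1, which was the lowest library in 18 of them. At an unadjusted p under 0.05 in edgeR, 1 was higher and 2 were lower, near the 3.68% and 4.43% of all genes. Sox9, a transcription factor of astrocytes, had 14.9, 15.4 and 14.6 CPM against 33.8, 19.8 and 20.3 CPM. Sparcl1, a secreted protein of astrocytes, had 1022, 919 and 1179 CPM against 711, 847 and 854 CPM, and Mfge8, a bridging protein of phagocytosis, had 79.98, 49.3 and 70.9 CPM against 22.6, 46.0 and 44.2 CPM. The groups did not overlap in any of these 3 genes. Of the 27 genes, 2 were higher and 3 lower without overlap, beside 7.73% and 7.7% of all genes.

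Cells other than astrocytes express several of the reactive genes, so their markers were read beside them. The 8 tested of 13 markers of blood myeloid cells all had a log2 fold change above 0, with a median of 1.71, and 0.33 without Snhg11-ASO replicate 1. Their summed level was 31.2 to 38.8 CPM in the controls and 134, 49.6 and 42.9 CPM with Snhg11-ASO, and no sample had a count of 0 for Ccr2, Ly6c2 or S100a8, the first genes of the list. Replicate 1 was the highest library in 7 of the 8, as it was in 17 of the 23 reactive genes. S100a8, a granule protein of neutrophils, had 1.05, 0.0297 and 0.386 CPM against 22.3, 0.167 and 0.183 CPM. Ly6c2, a surface protein of monocytes, had 0.306, 0.535 and 0.564 CPM against 2.88, 1.60 and 1.79 CPM, with no overlap and a DESeq2 adjusted p of 0.000892. It has a near copy, Ly6c1, and read pairs that fit both were not counted. The part of these cells in the level of Lcn2, Cd14, Srgn and the other reactive genes was not tested.

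Microglial markers ran the other way in that library. Of 14 genes none had an unadjusted p under 0.05, their median log2 fold change was -0.10, and 0.25 without replicate 1, which was the lowest library in 13 of them. They summed to 323 to 604 CPM in the controls and to 190.3, 505 and 623 CPM with Snhg11-ASO. P2ry12, a receptor of resting microglia, had 23.8, 51.99 and 36.8 CPM against 5.46, 40.2 and 48.5 CPM. Of 7 microglial inducers of reactive astrocytes all had a log2 fold change above 0, with a median of 0.63. The cytokine Tnf alone had an unadjusted p under 0.05 in edgeR, beside 3.68% of all genes that were higher. Tnf had 0.544, 0.357 and 0.297 CPM against 1.91, 1.46 and 0.481 CPM.

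Markers of the choroid plexus and ependyma differed widely between libraries of the same group. The 14 genes summed to 1987, 52.3 and 1291 CPM in the controls and to 1341, 157 and 92.3 CPM with Snhg11-ASO, and Ttr made up most of it. None had an unadjusted p under 0.05, and their median log2 fold change was -0.70, and -2.12 without replicate 1. In the same Control-ASO samples the summed level of the reactive genes, most of it Gfap, was 658, 2490.4 and 1763 CPM, so it was lowest where the choroid plexus markers were highest and highest where they were lowest. The median of the pan-reactive genes relative to the Control-ASO mean ran in the same order, at -0.31, 0.53 and 0.05. The other parts did not, with the ischaemia type at 0.28, 0.14 and -0.22 and the endotoxin type at -0.56, -0.02 and 0.40. All reactive genes together stood at 0.10, 0.31 and 0.03, lowest in Control-ASO replicate 3. The part of the dissection in these levels was not tested. Endothelial genes (12) had a median of 0.10, and 0.08 without replicate 1. Oligodendrocyte genes (10) had a median of 0.29, and 0.61 without replicate 1, which was the lowest library in 8 of them. None of either list had an unadjusted p under 0.05. Of 15 genes of mural cells and fibroblasts, which had a median of -0.05, and -0.11 without replicate 1, Tagln alone was higher, at 3.64, 3.21 and 3.71 CPM against 8.42, 7.01 and 6.71 CPM. Neuronal genes (10) had a median of -0.10, with Syt1 lower at an unadjusted p under 0.05 in edgeR. The 8 genes listed for the dorsal hippocampus, among them Prox1, which the paper uses as a marker of the dentate gyrus, had a median of 0.17. Wfs1 and Spink8 were higher at that level. Of all genes, 3.68% were higher and 4.43% lower at that level. All 10 neuronal genes and all 8 genes listed for the dorsal hippocampus passed the filter on low counts.

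**Figure D5:**
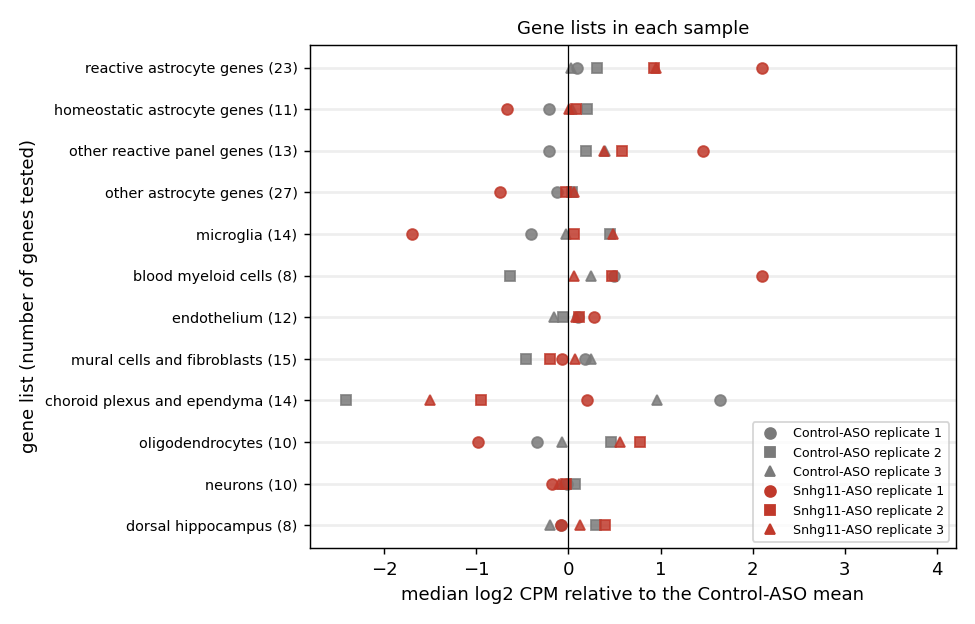
Each row is a gene list with its number of tested genes, and each point a sample at the median log2 CPM of the list relative to the Control-ASO mean, with the same colours and shapes as above. Snhg11-ASO replicate 1 stands at 2.10 for both the reactive astrocyte genes and the blood myeloid cells and at -1.69 for microglia. Snhg11-ASO replicates 2 and 3 stand at 0.93 and 0.95 for the reactive genes and at 0.48 and 0.07 for the blood myeloid cells. For the blood myeloid cells, Control-ASO replicates 1, 2 and 3 stand at 0.49, -0.63 and 0.25.

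Without Snhg11-ASO replicate 1 the reactive genes stood less high. The summed level of the myeloid markers in Snhg11-ASO replicates 2 and 3 was 49.6 and 42.9 CPM. It still lay above that of every control, the highest of which had 38.8 CPM. Their median relative to the Control-ASO mean did not, at 0.48 and 0.07 against 0.49 in Control-ASO replicate 1. In Snhg11-ASO replicates 2 and 3, against all 3 controls, the median log2 fold change of the pan-reactive genes was 1.01. That of the ischaemia type was 0.84 and that of the endotoxin type 0.71, beside 0.00 over all genes. Choroid plexus markers were low in both libraries (157 and 92.3 CPM summed), and among the controls only in replicate 2 (52.3 CPM). Relative to the Control-ASO mean, the pan-reactive median was 0.53 in that control against 1.05 and 1.19 in the 2 libraries. The part of the dissection in this difference was not tested. In the fit without replicate 1, Cd44 had the smallest unadjusted p of the reactive genes (8.7e-05), followed by Emp1 (0.00113). Lcn2, Cd14 and Sphk1 had log2 fold changes of 0.02, 0.13 and -0.06. Among the 11 homeostatic genes Aqp4 and S100b were then higher at an unadjusted p under 0.05 in edgeR (0.0444 and 0.0278), beside 4.41% of all genes. Their log2 fold changes were 0.61 and 0.40, and with all samples both genes overlapped between groups. No reactive or homeostatic gene passed the adjusted threshold in edgeR without Snhg11-ASO replicate 1. DESeq2 then called 4 reactive genes, Cd44, Osmr, S1pr3 and Emp1, all higher, beside 113 higher genes in all (0.559%, while 1.16% were lower). Sphk1, Clcf1 and B3gnt5 received no adjusted p in that fit.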

How the data were processed

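Total RNA of the dorsal hippocampus was sequenced from ribosomal RNA-depleted, stranded libraries of 3 Control-ASO and 3 Snhg11-ASO samples, grouped and numbered by their titles. The counts deposited by the authors are raw, per sample and per gene, neither normalized nor pooled, and were made with STAR 2.5.2a on GRCm38 (mm10) per the labels, while the study's methods name Rsubread. Counts of the reverse strand were used. The lines that name no gene held 43.5% to 51.4% of all pairs and were left out. Genes on several places or on exons of more than 1 gene are undercounted. Names and positions came from GENCODE M21, which matched 55141 of the 55401 genes, and promoter windows from RefSeq.

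The filter filterByExpr with a minimum count of 10 left 19969 genes. Libraries were scaled by TMM, and the groups were compared in edgeR 4.0.16 (R 4.3.3) by its quasi-likelihood test, with p adjusted by the method of Benjamini and Hochberg and a threshold of 0.05. Standard errors are |log2 fold change| over the root of F. An unadjusted p under 0.05 serves only to count genes beside the same count over all genes. A two-sided exact permutation test of mean log2 CPM (prior count 2) was run per gene. The fits in edgeR, DESeq2 and limma-voom and the offsets for genomic span were tested on simulated counts.

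Same-numbered samples had deviations from their group means that correlated weakly, at 0.297, 0.179 and 0.103. No source says what a number marks, and the deviations of samples with unlike numbers were not compared, so these values do not establish pairs. Control-ASO replicate 2 had a Spearman correlation of 0.989 with Snhg11-ASO replicate 2 and of 0.990 with Snhg11-ASO replicate 3. Pair ratios and the replicate block take the numbers as pairs all the same. Alternatives were DESeq2 1.42.0, limma-voom 3.58.1 with sample weights, other scaling factors, counts of both strands, other filters, the replicate block, offsets for genomic span, and leaving out each sample, in edgeR and, for Snhg11-ASO, in DESeq2. The study left out 1 Snhg11-ASO sample that it does not name.

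The members, the other lists, named from general knowledge of astrocyte panels and cell types, and the tests were chosen with earlier results of these data known. Members past the unadjusted threshold or with groups that did not overlap, and all pan-reactive and homeostatic genes, were to be given per sample; the remaining members are given per sample too. Of each other list at most 4 genes with the smallest p and its first 3 genes were to be named. Il6, Cntf and 6 other genes of these lists did not pass the filter on low counts.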

Additional observations from a re-analysis of the deposited data

How the results depend on the processing

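All 23 tested reactive genes kept a positive log2 fold change under the 19 alternatives except Sphk1, which lay between -0.068 and 3.35 as single samples were left out. Their median was 0.96 with limma-voom and 0.84 to 1.87 with a sample left out. In the fits with a sample left out, 7 to 20 of them were higher at an unadjusted p under 0.05. Over all genes, 366 to 1149 were higher at that level in the same fits, so the number called in general varied too. Of 437 values for these genes, 19 in 8 genes passed the adjusted threshold, all in DESeq2. Some of the others have no adjusted p. DESeq2 gave none to Lcn2, Cd14 and Sphk1 with all samples, and none to Sphk1, Clcf1 and B3gnt5 without Snhg11-ASO replicate 1. The homeostatic genes passed it in none of 209 values.

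Besides Sphk1, the directions that turned belonged to homeostatic genes whose value with all samples was near 0. Slc1a3 was 0.18 with limma-voom, and Slc4a4 was 0.081 with limma-voom, 0.046 with span offsets and 0.012 with these and the replicate block. Atp1b2 was -0.014 with upper-quartile factors and -0.0047 without a filter. With a sample left out, the ranges were -0.19 to 0.20 for Slc1a3, -0.30 to 0.090 for Slc4a4, -0.10 to 0.12 for Atp1b2, -0.30 to 0.37 for Aldh1l1 and -0.15 to 0.40 for S100b.

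With the replicate block, which takes same-numbered samples as pairs, the number of reactive genes with an unadjusted p under 0.05 was 19, beside 3.99% of all genes that were higher, and that of lower homeostatic genes was 2, beside 4.6% of all genes, as with the block and span offsets together (0 to 2 with a sample left out). Aldh1l1 was -0.074 with the block and -0.032 with the block and span offsets, and S100b -0.022 and -0.028. The block changed no adjusted call. Over all genes, DESeq2 called 258, limma-voom 7, and fits without a sample 0 to 347. Snhg11 stood at -2.12 in DESeq2 and at -2.57 to -1.83 with a sample left out. The causes were not tested.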
